A study of Homo sapiens with 6 samples.

Results

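EFEMP1, which encodes fibulin-3, was examined together with other secreted matrix glycoproteins in Cal33, a squamous carcinoma line of the oral cavity. Of 8 listed genes (EFEMP1, EFEMP2, FN1, TNC, THBS1, SPARC, TGFBI and LTBP1), 7 had an entry among the 14136 gene entries of the table, and SPARC had none in the table analysed here. All 7 passed the filter on low values, at least 1 TPM (a transcript abundance per length, scaled to a fixed total in each library) in at least 3 libraries, which left 12210 genes. The genes were chosen by name with the TPM of the CES2 and Vector libraries known, and thus selected on this same comparison, so their differences between groups are given as a description, without a test. The tested cells stably carried pSin-EF2-CES2-FLAG, a lentiviral construct for FLAG-tagged carboxylesterase 2 (CES2 group, 3 libraries), and the control cells carried the empty pSin-EF2 vector (Vector group, 3 libraries). Both groups went through lentiviral infection and puromycin selection and were grown in DMEM with fetal bovine serum. The labels do not say whether each group is a pool or a clone, or whether its 3 libraries came from separate cultures, so any p-value measures only the spread between these libraries, which may be technical.

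Secreted glycoproteins give the extracellular matrix much of its specificity. Fibulins are built from tandem calcium-binding EGF modules and take part in basement membranes and elastic fibres. Fibronectin and tenascin-C form and remodel adhesive networks that integrins bind. Thrombospondin-1, TGFBI and LTBP1 connect the matrix to TGF-beta, which LTBP1 holds in latent form, thrombospondin-1 can activate and TGFBI is named for responding to. In squamous carcinoma these proteins come both from tumour cells and from the surrounding stroma, and only the tumour cells are present in a cell line.

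CES2, a serine hydrolase of the endoplasmic reticulum, was at 2664, 1929 and 2294 TPM in the CES2 libraries and at 45.6, 41.9 and 44.9 TPM in the Vector libraries, in keeping with their labels. It was the only gene past an adjusted p of 0.05 in limma across all 12210 genes, 0.00819% of those tested, with 1 gene higher and 0 lower and 133 genes at an unadjusted p under 0.05. The first component of the spread within groups held 59.5% of it and set CES2 library 2 (score 0.485) and Vector library 1 (0.518) apart from CES2 library 3 (-0.568) and Vector library 2 (-0.386), across the groups. Markers of squamous epithelium had an entry at 10 of 10 and summed to between 4408 and 5914 TPM in the CES2 libraries and between 4522 and 5767 TPM in the Vector libraries, led by KRT5 and KRT17, while KRT14 did not exceed 3.0 TPM in any library. Of 10 fibroblast markers 2 had an entry, ACTA2 and COL1A1, and the other 8, among them COL1A2, DCN, LUM and PDGFRA, had none. Of 6 endothelial markers 4 had an entry, among them PECAM1, below 1 TPM in each library, and CDH5, at 8.25 to 25.3 TPM. Of 6 leukocyte markers 3 had an entry, none of them PTPRC, and CD68 was at 5.47 to 11.6 TPM.

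EFEMP1 (ENSG00000115380) lies on the minus strand of chromosome 2 at 55865967 to 55924139 (GRCh38), and its listed transcript has 11 exons and 3024 bases, the longest of the 14 that GENCODE release 29 gives the gene. It was at 61.9, 76.6 and 98.6 TPM in the CES2 libraries and at 162, 155 and 109 TPM in the Vector libraries. The groups did not overlap: every CES2 library lay below every Vector library, although CES2 library 3 and Vector library 3 came close to each other. The means were 79.0 ± 18.5 TPM in CES2 and 142 ± 28.9 TPM in Vector (SD, n = 3 each), a ratio of 0.557, and the log2 fold change of TPM + 1 was -0.84 ± 0.24 (SE). EFEMP1 was the 1 gene of the 7 whose groups did not overlap. Among all tested genes 2.63% were separated with CES2 lower and 1.07% with CES2 higher. Since results of this contrast were known when EFEMP1 was listed, nothing follows from that count. In bulk RNA, fewer cells making a transcript and less of it per cell cannot be told apart.

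**Figure D1:**
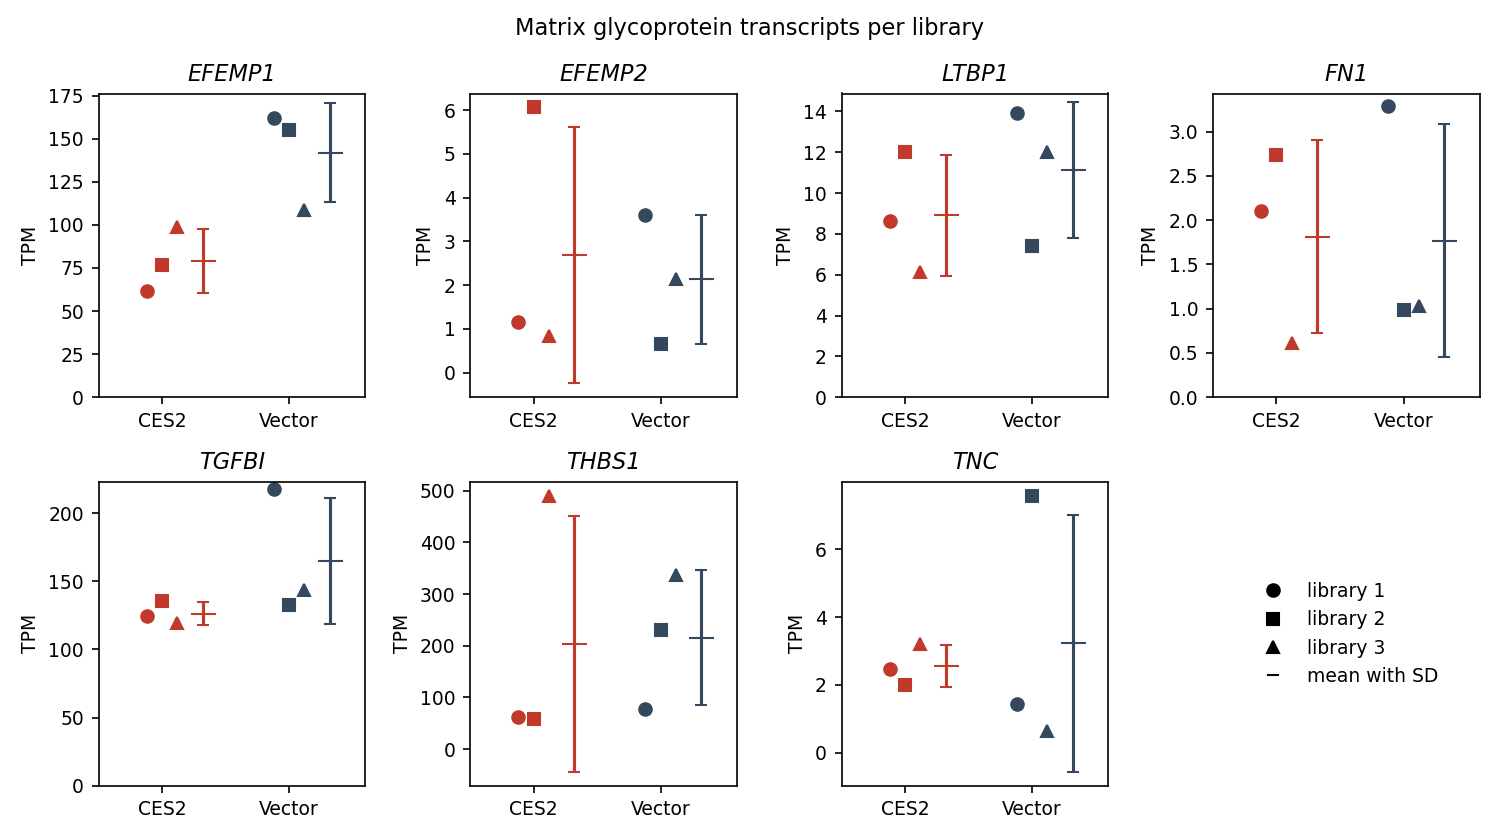
TPM of each of the 7 genes per library (y axis, linear, a separate scale for each gene) in the CES2 group (red, left) and the Vector group (dark blue, right). Symbols give libraries 1, 2 and 3 and the offset bar the mean with its SD over 3 libraries; EFEMP1 is lower in each CES2 library than in each Vector library, and in the other 6 genes the groups overlap.

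The genes most like EFEMP1 were of unrelated kinds, and only the first 5 by each measure are named, so how many genes share its pattern was not counted. Over the 6 libraries, and among the 10547 other tested genes with a mean of at least 5 TPM, the highest Pearson correlations of log2(TPM + 1) with EFEMP1 were those of ZNF33A (0.983), a zinc finger gene, BORA (0.965), an activator of the mitotic kinase Aurora A, PRSS23 (0.960), a secreted serine protease, FAM156B (0.950) and LARP4B (0.949), an RNA-binding protein. These are the highest of many values over 6 libraries that share their depth and scaling, and they are given as a description. By distance, which also takes the size of the differences into account, PRSS23 was nearest (0.362 log2 units over the 6 libraries), followed by ZNF33A (0.504), ZNF488 (0.532), RPS3A (0.539) and PCDH19 (0.561). PRSS23 was at 20.4, 28.7 and 43.9 TPM in the CES2 libraries and at 63.2, 51.15 and 43.4 TPM in the Vector libraries, so that its groups overlapped at CES2 library 3 and Vector library 3, the same pair that came closest in EFEMP1. ZNF33A was at 7.90, 8.41 and 10.5 TPM in CES2 and at 14.1, 14.4 and 10.2 TPM in Vector, again with an overlap of these libraries. RPS3A has many processed copies and FAM156B a near-identical neighbour, and ZNF33A a close paralog, so their values are uncertain where reads match more than 1 copy.

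**Figure D2:**
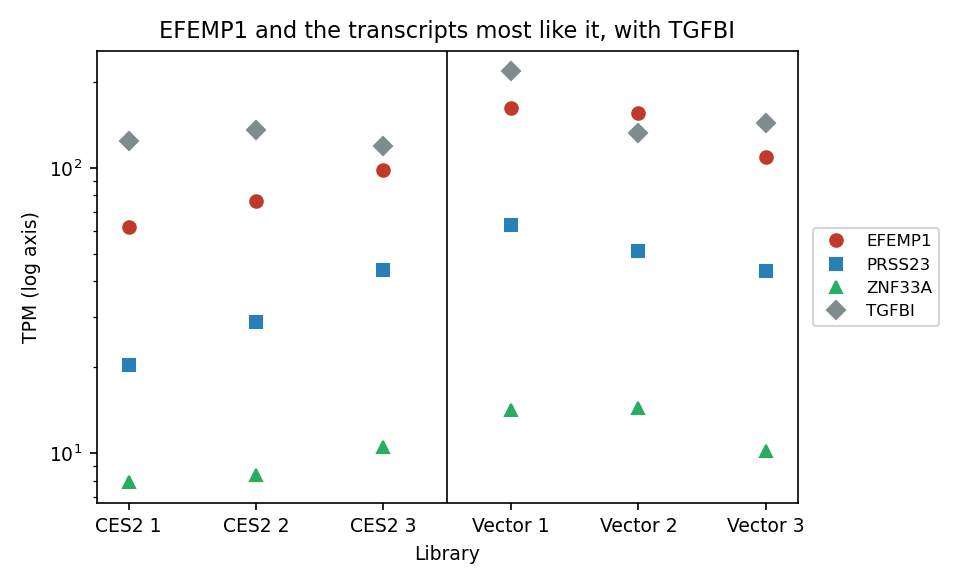
TPM per library (log axis) of EFEMP1, of PRSS23 and ZNF33A, the nearest genes by distance, and of TGFBI, with CES2 libraries left of the line and Vector libraries right of it. EFEMP1, PRSS23 and ZNF33A are each lowest in CES2 library 1, and library 3 of the CES2 group lies close to library 3 of the Vector group in these 3 genes.

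TGFBI was the member whose profile came nearest to EFEMP1 (Pearson 0.618, rank 354 of the 10547 genes). TGFBI (ENSG00000120708) encodes a secreted protein that binds collagens and integrins. Its listed transcript has 17 exons and 2804 bases on the plus strand of chromosome 5, from 136028895 to 136063817. It was at 124, 135 and 119 TPM in the CES2 libraries and at 218, 133 and 143 TPM in the Vector libraries. The CES2 libraries were tightly grouped, and the groups overlapped narrowly, with CES2 library 2 above Vector library 2. The means were 126 ± 8.15 TPM in CES2 and 165 ± 46.4 TPM in Vector (SD, n = 3 each), with a log2 fold change of -0.35 and a standard error of 0.22. Vector library 1 carried much of this difference: without it the log2 fold change was -0.13.

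LTBP1, FN1 and EFEMP2 were each highest in Vector library 1 or CES2 library 2. LTBP1 (ENSG00000049323), which tethers latent TGF-beta to microfibrils, lies on the plus strand of chromosome 2 at 32946972 to 33399359, with 34 exons and 6333 bases in its listed transcript. It was at 8.62, 12.01 and 6.12 TPM in the CES2 libraries and at 13.9, 7.42 and 11.99 TPM in the Vector libraries, with means of 8.91 ± 2.96 TPM in CES2 and 11.1 ± 3.34 TPM in Vector (SD, n = 3 each). The groups overlapped, and the log2 fold change was -0.29 ± 0.32 (SE). It was -0.53 without Vector library 2, -0.51 without CES2 library 2 and -0.07 without CES2 library 3.

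FN1 (ENSG00000115414) encodes fibronectin, the dimeric glycoprotein whose RGD-bearing repeats are bound by integrin alpha5 beta1. Its listed transcript has 45 exons and 8103 bases on the minus strand of chromosome 2, from 215360440 to 215436067. It was low, at 2.098, 2.73 and 0.612 TPM in the CES2 libraries and at 3.29, 0.979 and 1.03 TPM in the Vector libraries. By mean level FN1 stood above only 4.18% of tested genes. The means were 1.81 ± 1.09 TPM in CES2 and 1.77 ± 1.32 TPM in Vector (SD, n = 3 each), with a log2 fold change of 0.04 and a standard error of 0.44. The sign turned negative in 4 of 14 alternatives, each of which left out 1 library.

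EFEMP2 (ENSG00000172638) encodes fibulin-4, which elastic fibre assembly and the delivery of lysyl oxidase depend on. It was at 1.15, 6.06 and 0.844 TPM in the CES2 libraries and at 3.61, 0.650 and 2.13 TPM in the Vector libraries. CES2 library 2 was far above the other CES2 libraries and the groups overlapped throughout. The means were 2.68 ± 2.93 TPM in CES2 and 2.13 ± 1.48 TPM in Vector (SD, n = 3 each), the log2 fold change was 0.08 ± 0.58 (SE), and it was -0.53 without CES2 library 2. The listed EFEMP2 transcript, on the minus strand of chromosome 11 at 65866441 to 65867080, has only 2 exons and 543 bases, is annotated as subject to nonsense-mediated decay, and is much shorter than the 2277 bases of the gene's longest transcript. EFEMP2 also overlaps MUS81, a DNA repair nuclease gene on the opposite strand. The library kit marks strand, but how strand was used in counting was not stated, and without it reads of both genes cannot be told apart.

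Across the 6 libraries the Pearson correlation was 0.841 between EFEMP2 and LTBP1, 0.759 between EFEMP2 and FN1 and 0.754 between FN1 and LTBP1. TGFBI had correlations of 0.745 with LTBP1, 0.633 with FN1 and 0.502 with EFEMP2, against 0.618 with EFEMP1. These are descriptions over libraries that also share their depth and scaling. The 2 fibroblast markers with an entry moved in the same way: ACTA2 and COL1A1 together were at 18.3, 30.9 and 8.4 TPM in the CES2 libraries and at 37.7, 12.3 and 17.4 TPM in the Vector libraries, highest in Vector library 1 and CES2 library 2. Their part in the FN1, LTBP1 and EFEMP2 profiles was not tested. Vector library 1 and CES2 library 2 also had the highest scores, 0.518 and 0.485, on the first component of the spread within groups over all tested genes. The promoters of FN1, LTBP1 and EFEMP2 are shown because the transcripts moved together, and that of THBS1 because it moved against FN1. Each is the 250 bases before the RefSeq start site (GRCh38.p14), read 5′ to 3′ on the gene's strand. Capitals mark the motifs searched for on both strands: the CRE TGACGTCA, the AP-1 site TGACTCA, the GC box GGGCGG, the CCAAT box CCAAT and the TATA box TATAAA.
FN1 promoter, chr2:215436069-215436318, minus strand: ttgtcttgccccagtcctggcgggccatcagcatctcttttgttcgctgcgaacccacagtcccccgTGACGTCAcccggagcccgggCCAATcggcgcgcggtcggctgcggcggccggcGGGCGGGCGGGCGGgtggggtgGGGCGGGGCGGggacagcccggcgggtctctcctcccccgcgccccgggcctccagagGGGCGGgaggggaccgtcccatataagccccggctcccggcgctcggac
LTBP1 promoter, chr2:32946703-32946952, plus strand: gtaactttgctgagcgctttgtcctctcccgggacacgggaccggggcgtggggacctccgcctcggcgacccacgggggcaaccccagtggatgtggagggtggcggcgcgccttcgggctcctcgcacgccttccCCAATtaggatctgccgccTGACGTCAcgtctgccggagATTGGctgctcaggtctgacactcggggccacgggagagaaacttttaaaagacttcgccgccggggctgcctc
EFEMP2 promoter, chr11:65872801-65873050, minus strand: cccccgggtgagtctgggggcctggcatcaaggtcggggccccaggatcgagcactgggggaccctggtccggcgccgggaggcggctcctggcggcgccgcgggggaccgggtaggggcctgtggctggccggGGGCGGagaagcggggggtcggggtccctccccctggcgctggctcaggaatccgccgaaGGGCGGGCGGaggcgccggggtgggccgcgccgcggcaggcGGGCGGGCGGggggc
THBS1 promoter, chr15:39580829-39581078, plus strand: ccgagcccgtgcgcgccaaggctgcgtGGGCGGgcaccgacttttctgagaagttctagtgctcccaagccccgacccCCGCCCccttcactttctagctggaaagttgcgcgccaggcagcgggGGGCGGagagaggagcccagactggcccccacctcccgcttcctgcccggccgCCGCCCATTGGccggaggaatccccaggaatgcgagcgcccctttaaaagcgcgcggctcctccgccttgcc

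The CRE was found in FN1, from -183 to -176 relative to the start site, and in LTBP1, from -94 to -87. It is present in 1.65% of the 35116 promoter windows of this length in the RefSeq table, counting each start site of a gene. FN1 and LTBP1 also held a CCAAT box, as did THBS1 in the reverse orientation, and 32.01% of all windows do. GC boxes were found in FN1, EFEMP2 and THBS1 and in 42.64% of all windows, and those that run together in capitals overlap each other. No exact match to the AP-1 site or to TATAAA was found in the 4 windows shown. Variants of these motifs were not searched for, so a TATA-like element may be present. These are matches of letters and say nothing of which factor, if any, was bound in Cal33. The EFEMP2 window lies several kilobases upstream of the short transcript listed for that gene. LTBP1 has 3 RefSeq start sites, of which the one nearest the listed transcript is shown. The TGFBI window is not shown, although TGFBI also correlated with LTBP1 and FN1. It held GC boxes but no CRE and no CCAAT box. For EFEMP1 no promoter window was available.

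THBS1 was the member with the highest mean and the widest spread. THBS1 (ENSG00000137801) encodes thrombospondin-1, a trimeric glycoprotein that binds CD47 and CD36 and restrains angiogenesis. It was at 63.1, 58.6 and 490.4 TPM in the CES2 libraries and at 77.9, 231 and 338 TPM in the Vector libraries. CES2 libraries 1 and 2 lay with Vector library 1 at the low end, CES2 library 3 was the highest of all, and the groups overlapped. The means were 204 ± 248 TPM in CES2 and 216 ± 131 TPM in Vector (SD, n = 3 each), with a log2 fold change of -0.58 and a standard error of 0.83. It was -1.57 without CES2 library 3, -1.19 without Vector library 1 and -0.05 without CES2 library 2. Within groups THBS1 had an SD of 1.44 log2 units, above that of 99.5% of tested genes. Its listed transcript, on the plus strand of chromosome 15 at 39581079 to 39582407, has 3 exons and 582 bases, against 7775 bases for the longest THBS1 transcript in GENCODE release 29. The source does not say whether a gene's value is that of the listed transcript or of all its transcripts, so the level of THBS1 relative to the other genes is uncertain. FSIP1 lies across from THBS1 on the opposite strand.

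Of the other matricellular genes named here some followed the THBS1 profile and some ran against it. CYR61, a CCN-family adhesive protein, was at 33.1, 29.5 and 87.1 TPM in the CES2 libraries and at 24.9, 85.7 and 74.2 TPM in the Vector libraries. CTGF, its relative, was at 1.73, 5.29 and 17.9 TPM in CES2 and at 1.82, 16.6 and 25.3 TPM in Vector. Both were low in CES2 libraries 1 and 2 and Vector library 1 and high in the other 3 libraries, as THBS1 was, with Pearson correlations to it of 0.935 for CYR61 and 0.894 for CTGF. Against it ran WISP2, also of the CCN family, with a correlation of -0.962, and IGFBP7, with -0.938, while AGRN was at -0.66. TGFB2, a TGF-beta ligand, had a correlation of 0.947 with THBS1 and was at 5.20, 5.34 and 20.8 TPM in CES2 and at 9.64, 11.03 and 16.6 TPM in Vector. FN1 ran the other way, with a correlation of -0.932 to THBS1, and so did ITGB6 (-0.962), the integrin subunit that with alpha-V activates latent TGF-beta. ITGB6 was at 71.0, 100.1 and 28.2 TPM in the CES2 libraries and at 94.5, 38.4 and 27.2 TPM in the Vector libraries. These profiles crossed the groups, and none separated CES2 from Vector. They were set beside THBS1 after their values were seen. The first component of the spread within groups, over all tested genes, split the libraries in the same way by sign. Its scores were 0.083, 0.485 and 0.518 in CES2 libraries 1 and 2 and Vector library 1. In CES2 library 3 and Vector libraries 2 and 3 the scores were -0.568, -0.386 and -0.133. Genes of other roles had similar correlations with THBS1, among them SMAD3 (-0.931), SDC4 (-0.908) and CTSB (-0.899). The 4 endothelial markers with an entry, mostly CDH5, summed to between 11.3 and 21.1 TPM in the CES2 libraries and between 10.4 and 26.2 TPM in the Vector libraries, with the higher sums in CES2 library 3 and Vector libraries 2 and 3. PECAM1 and VWF went otherwise, highest in CES2 library 2 (0.549 and 1.87 TPM) and lowest in Vector library 2 (0.128 and 0.382 TPM). CLDN5 was highest in Vector library 3, at 1.71 TPM. The part of these markers in the THBS1 profile was not tested.

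**Figure D3:**
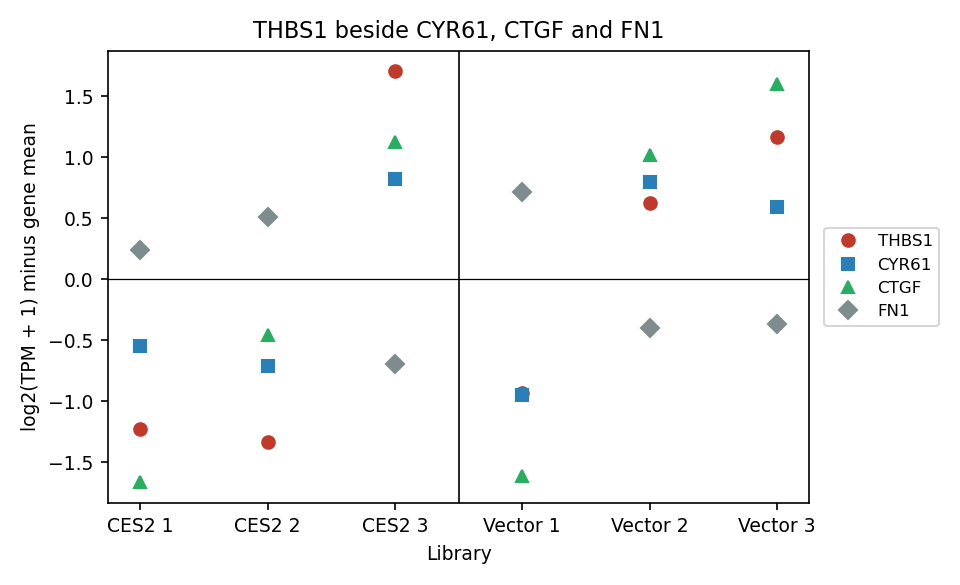
Deviation of log2(TPM + 1) from each gene's mean over 6 libraries (y axis) for THBS1, CYR61, CTGF and FN1, with CES2 libraries left of the line and Vector libraries right of it. THBS1, CYR61 and CTGF are below 0 in CES2 libraries 1 and 2 and Vector library 1 and above 0 in the others, and FN1 is the reverse.

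TNC (ENSG00000041982) encodes tenascin-C, a hexameric glycoprotein of remodelling tissue and tumour stroma that tempers adhesion to fibronectin. Its listed transcript has 24 exons and 7508 bases on the minus strand of chromosome 9, from 115019578 to 115118257. It was low, at 2.47, 1.99 and 3.21 TPM in the CES2 libraries and at 1.45, 7.57 and 0.654 TPM in the Vector libraries. The CES2 libraries all lay inside the range of the Vector libraries, which spanned 11.6-fold. The means were 2.55 ± 0.614 TPM in CES2 and 3.22 ± 3.78 TPM in Vector (SD, n = 3 each). The log2 fold change was 0.11, opposite in sign to the difference of the TPM means, with a standard error of 0.56. It was 0.81 without Vector library 2 and -0.38 without Vector library 3.

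The members differed among themselves in direction. Log2 fold changes were negative in 4 of the 7 (EFEMP1, THBS1, TGFBI and LTBP1) and slightly positive in 3 (TNC, EFEMP2 and FN1), with a median of -0.29. That median ranged from -0.41 without Vector library 2 to -0.07 without CES2 library 3. Over all tested genes the median was -0.06 and 63.7% of genes were negative. EFEMP1, THBS1, TGFBI and LTBP1 kept a negative sign in each of the 15 alternatives run. The sign of EFEMP2 and FN1 turned in 4 of 14 and that of TNC in 3 of 14. The filters, the fit without the trend and the replicate block cannot change a fold change, so those alternatives could not turn a sign. For EFEMP1 the value ranged from -1.02 without Vector library 3 to -0.68 without CES2 library 1.

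**Figure D4:**
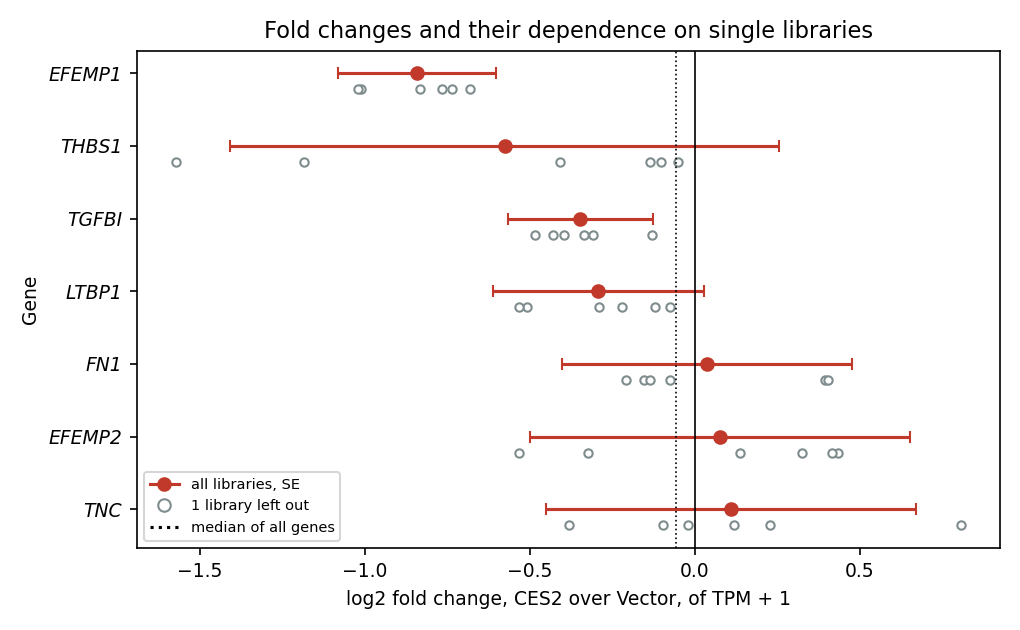
Log2 fold change of TPM + 1, CES2 over Vector (x axis), for each gene with all libraries (red, bar for the standard error) and with 1 library left out in turn (open circles); the dotted line is the median of all tested genes, -0.06. The EFEMP1 values stay between -1.02 and -0.68, while those of THBS1 reach from -1.57 to -0.05 and those of EFEMP2, FN1 and TNC lie on both sides of 0.

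Summed over the 7 genes, the level was 264, 293 and 719 TPM in the CES2 libraries and 480, 536 and 606 TPM in the Vector libraries. THBS1 made up 23.9%, 20.0% and 68.2% of that sum in CES2 and 16.2%, 43.2% and 55.7% in Vector, and EFEMP1 23.5%, 26.1% and 13.7% in CES2 and 33.7%, 28.95% and 18.0% in Vector. The order of mean levels was THBS1, TGFBI, EFEMP1 and LTBP1 in both groups, in TPM. After these came EFEMP2, TNC and FN1 in CES2 and TNC, EFEMP2 and FN1 in Vector. This order of means did not hold in every library: THBS1 lay below TGFBI in CES2 libraries 1 and 2 and Vector library 1. In the CES2 libraries EFEMP1 lay below TGFBI and above LTBP1 without overlap, and the other neighbours overlapped except LTBP1, which lay above EFEMP2. In the Vector libraries the ranges of EFEMP1 and TGFBI overlapped. Within libraries, EFEMP1 lay below TGFBI in Vector libraries 1 and 3 and above it in Vector library 2. Whether their levels differed was not tested. EFEMP1 and LTBP1 were the only neighbours apart in the Vector libraries. EFEMP1 stood above 85.5% of tested genes by mean level and had a middling spread within groups (SD of 0.32 log2 units, above 52.4% of genes), whereas EFEMP2, TNC and FN1 were at low levels with spreads above at least 90.1% of genes. Of the members, EFEMP1 and EFEMP2 belong to the same fibulin subgroup, and their profiles had a Pearson correlation of -0.10.

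**Figure D5:**
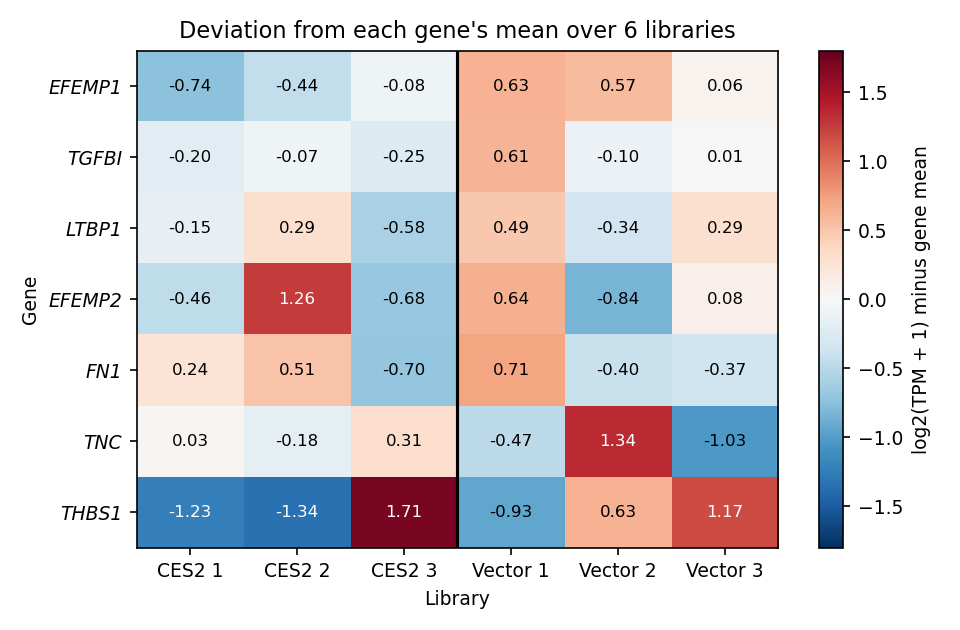
Deviation of log2(TPM + 1) from each gene's mean over the 6 libraries, by gene (rows) and library (columns, CES2 left of the line and Vector right of it), with red above and blue below the mean. EFEMP1 is negative in each CES2 library and positive in each Vector library, TGFBI is at 0.61 in Vector library 1, and THBS1 spans from -1.34 in CES2 library 2 to 1.71 in CES2 library 3.

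Other genes of the same matrix were counted in lists set out by role, not by how they moved. Over all 12210 tested genes 1 passed the threshold, CES2 itself, and 133 were at an unadjusted p under 0.05. With shares this small, counts of 0 are the usual outcome for lists this short, so nothing follows from them in any list below. Of all tested genes 63.7% were negative. Among the other fibulins and elastic fibre genes 27 were listed, 22 had an entry and 12 were tested. By limma 0 passed in either direction, and 0 were at an unadjusted p under 0.05. The median log2 fold change was 0.01. FBLN1, which encodes fibulin-1, was at 112, 180.0 and 94.5 TPM in the CES2 libraries and at 152, 80.4 and 186 TPM in the Vector libraries, so that the groups overlapped fully. LTBP3, a relative of LTBP1, averaged 70.3 ± 20.9 TPM in CES2 and 68.8 ± 20.6 TPM in Vector (SD, n = 3 each). MFAP1, a splicing factor despite its microfibril name, averaged 60.4 ± 6.78 TPM in CES2 and 60.6 ± 10.4 TPM in Vector. The collagen and elastin cross-linking enzymes LOXL2 and LOX had log2 fold changes of 0.74 ± 0.53 and 0.28 ± 0.64 (SE). FBN1, the main microfibril protein, had an entry but did not pass the filter, and ELN, elastin itself, had none.

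Of 40 other adhesive and matricellular glycoproteins 32 had an entry and 16 were tested, with 0 past the threshold and 0 at an unadjusted p under 0.05. Of the 16, 12 were negative, against 63.7% of all tested genes, and the median log2 fold change was -0.12. AGRN, the heparan sulfate proteoglycan agrin, was the most abundant, at 227 ± 57.5 TPM in CES2 and 228 ± 12.7 TPM in Vector (SD, n = 3 each). IGFBP7, a secreted binding protein of basement membranes, averaged 96.9 ± 48.0 TPM in CES2 and 88.1 ± 36.0 TPM in Vector. WISP2, another CCN protein, was at 22.8, 14.1 and 1.88 TPM in CES2 and at 13.0, 5.79 and 1.70 TPM in Vector, a log2 fold change of 0.67 ± 0.83 (SE). Those of CYR61 and CTGF were -0.29 and -0.67.

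Of 22 listed receptors for these proteins 19 had an entry and 14 were tested, with 0 past the threshold, 0 at an unadjusted p under 0.05 and a median log2 fold change of -0.04. ITGA4, ITGA9, ITGB3, STAB2 and CD36, the last a thrombospondin-1 receptor, had an entry but did not pass the filter. CALR, the calcium-binding chaperone that also serves as a cell surface partner of thrombospondin-1, averaged 1179 ± 104 TPM in CES2 and 993 ± 212 TPM in Vector (SD, n = 3 each). The syndecans are cell surface proteoglycans that bind matrix proteins such as fibronectin. SDC1 averaged 427 ± 65.3 TPM in CES2 and 449 ± 46.6 TPM in Vector, and SDC4 averaged 407 ± 88.3 TPM in CES2 and 328 ± 96.4 TPM in Vector. The log2 fold change was 0.33 both for SDC4 (SE 0.26) and for ITGB6 (SE 0.55).

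Genes for the storage and release of latent TGF-beta numbered 15, of which 14 had an entry and 13 were tested. By limma 0 passed and 0 were at an unadjusted p under 0.05. Of the 13, 10 were negative, against 63.7% of all tested genes, and the median log2 fold change was -0.12. SMAD3, an effector of the pathway, averaged 89.1 ± 21.1 TPM in CES2 and 82.7 ± 26.5 TPM in Vector (SD, n = 3 each). FURIN, which processes the TGF-beta precursors, averaged 65.2 ± 21.9 TPM in CES2 and 59.9 ± 8.95 TPM in Vector. The receptor TGFBR2 averaged 57.3 ± 3.60 TPM in CES2 and 59.5 ± 9.81 TPM in Vector. TGM2, the transglutaminase that cross-links LTBP1 and fibronectin, was at 9.50, 24.2 and 1.21 TPM in CES2 and at 32.7, 4.23 and 8.45 TPM in Vector. It was highest in Vector library 1 and CES2 library 2, as FN1 and LTBP1 were, and its log2 fold change was -0.50 ± 0.92 (SE). That of TGFB2 was -0.46 ± 0.49 (SE).

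Of 17 genes for cleavage of matrix glycoproteins and its inhibition 14 had an entry and 11 were tested. By limma 0 passed the threshold and 0 were at an unadjusted p under 0.05. Of the 11, 9 were negative, against 63.7% of all tested genes, and the median log2 fold change was -0.12. CTSB, the lysosomal protease cathepsin B, was at 872, 1431 and 443 TPM in the CES2 libraries and at 1281, 567 and 663 TPM in the Vector libraries. MMP14, a membrane-anchored metalloproteinase, was at 172, 271 and 114 TPM in CES2 and at 251, 148 and 156 TPM in Vector. Both were highest in CES2 library 2 and Vector library 1. PLAU, urokinase, averaged 233 ± 48.8 TPM in CES2 and 210 ± 76.3 TPM in Vector (SD, n = 3 each), and HTRA1, a secreted serine protease, had a log2 fold change of -0.40 ± 0.37 (SE).

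The last list held 15 genes that fold calcium-binding and disulfide-rich proteins in the secretory pathway, all with an entry and 14 tested. By limma 0 passed and 0 were at an unadjusted p under 0.05. Of the 14, 10 were positive and 4 negative, where 63.7% of all tested genes were negative. The median log2 fold change was 0.12. CANX, the membrane chaperone calnexin, was at 599.6, 425 and 679.5 TPM in the CES2 libraries and at 488, 362 and 356 TPM in the Vector libraries. Only CES2 library 2 lay within the range of the Vector libraries. The log2 fold change was 0.49 ± 0.23 (SE) (limma, unadjusted p = 0.0661, adjusted p = 0.9998). CANX was named for the largest difference in this list, so its p is a selected one. The listed CANX transcript has only 585 bases, so its level is uncertain, as for THBS1. HSP90B1, the chaperone GRP94, averaged 845.5 ± 79.8 TPM in CES2 and 772 ± 140.1 TPM in Vector, and the protein disulfide isomerase P4HB 481 ± 128 TPM in CES2 and 497 ± 56.3 TPM in Vector (SD, n = 3 each).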

How the data were processed

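The deposited values are TPM per gene entry, with 1 listed transcript each, in 1 table of the 6 libraries. No header names the unit, which was inferred from column sums near a fixed total in every library. Tools credited in the submitters' processing notes, without roles, are edgeR 3.0.8, HISAT2 2.1.0 and StringTie 1.3.3, on builds hg38 and GRCh38. The sources used here give no filters, annotation or use of strand. TPM keeps no depth, so counting error is unknown, and abundant transcripts shift all others. Of the listed transcripts found in GENCODE release 29, 18.8% were under a fraction of 0.5 of the longest of their gene. Those of FBLN1, SMAD3, CTSB, PLAU, CANX and HSP90B1 have between 468 and 660 bases. Whether the values of these genes are those of the listed transcripts is not stated.

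Blanks (607 entries) were read as 0. The 12210 genes that reached 1 TPM in 3 or more libraries were fitted as log2(TPM + 1) in R 4.3.3 (limma 3.58.1, intensity trend) on group alone, with Benjamini-Hochberg adjustment and a threshold of 0.05. A log2 fold change on this scale understates changes of low genes. Values were summarised in pandas 2.3.3 and plotted in matplotlib 3.10.9 under Python 3.11.15. The fit was also run on simulated data, with noise drawn independently for each gene and library. The real libraries share a component of spread across genes, so that run cannot vouch for the fit on them.

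The members and lists were chosen with earlier results of these data known. Genes named were the members, CES2, the 3 most abundant and the 2 with the largest difference (mean of at least 5 TPM) of each list, and the 5 most like EFEMP1 by each measure, besides the cell type markers. Alternatives covered filters, a pseudocount of 0.1, median rescaling, quantile normalization, no trend, library weights, the replicate number as a block and each library left out. Leaving out Vector library 1 and CES2 library 2 together was added after seeing the data.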

Additional observations from a re-analysis of the deposited data

How the results depend on the processing

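The count of genes past the threshold, 1 with all libraries, was 1 in 12 of 15 alternatives. It was 4 with library weights, 2 without Vector library 1 and CES2 library 2 (chosen after seeing the data), and between 1 and 2 when 1 library was left out, the 2 arising without CES2 library 3. None of these added genes was a member, and no gene of the 6 pathway lists passed in any alternative, where the lists gave 0 throughout. With at most 4 genes past the threshold in any alternative, a 0 in lists this short says little. The number at an unadjusted p under 0.05, 133 with all libraries, was between 90 and 256 with 1 library left out and 621 with library weights. With the replicate number as a block the count was 1. Each replicate number has 1 library in each group, so the block cannot change a fold change. That of EFEMP1 was therefore again -0.84. The labels do not say whether equal numbers pair the libraries. Same-numbered CES2 and Vector libraries had correlations of 0.145, -0.524 and 0.375 between their deviations from the group means. With 3 libraries a group, these values cannot decide whether the libraries are paired.

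The EFEMP1 log2 fold change was between -1.01 and -0.78 with the other pseudocount, other scalings and library weights. Other filters could not change it. The THBS1 value was -1.52 with library weights, and that of EFEMP2 -0.34. The weight of CES2 library 1 was 6.86, and those of the other libraries lay between 0.513 and 1.124. All results with library weights, the counts above included, thus rest largely on CES2 library 1 for that group. With a minimum of 5 TPM, EFEMP2, FN1 and TNC were not tested and the median of the remaining 4 members was -0.46. Median rescaling moved the median of all genes to 0.003, against -0.06. Unknown depth and 3 libraries a group limit what can be said of EFEMP2, FN1 and TNC, all at a few TPM.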
